A study of Mus musculus with 22 samples.

Results

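The creatine system of the mouse brain is described here through 5 genes, Gatm, Gamt, Slc6a8, Ckb and Ckmt1, in the ribosome-bound mRNA of 6 cell types. The 5 genes were chosen by symbol, with their levels in these libraries already known, from the 55385 genes of the transcript index, and all 5 were measured in every library. Their levels, orders and transcript shares are therefore given as a description, without a test.

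Creatine is made from arginine, glycine and a methyl group in the course of 2 steps, and it stores high-energy phosphate as phosphocreatine. The first enzyme, the amidinotransferase encoded by Gatm, transfers the amidino group of arginine to glycine, which releases ornithine and gives guanidinoacetate. The second, the methyltransferase encoded by Gamt, methylates guanidinoacetate to creatine and uses S-adenosylmethionine as the donor. Slc6a8 encodes the sodium- and chloride-dependent transporter that carries creatine across the plasma membrane, and inherited loss of any of these 3 genes causes a cerebral creatine deficiency in humans. Creatine kinases then move phosphate between ATP and creatine. Ckb encodes the cytosolic brain-type kinase and Ckmt1 the ubiquitous kinase of the mitochondrial intermembrane space.

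All animals carried 1 floxed allele of Rpl22 (Rpl22 Fl/+), from the RiboTag line, in which Cre recombination leads to an HA-tagged ribosomal protein, and 1 Cre transgene or knock-in, and tissue was taken at 6 weeks of age. The driver was Rbp4-Cre for the dentate gyrus granule cells (hippocampus) and for the layer V cortical neurons (cortex), Gabra6-Cre for the cerebellar granule cells (cerebellum), Dlx6a-Cre for the inhibitory interneurons (hippocampus), an Aldh1 driver (labelled Aldh1-cre, and named in the methods as the tamoxifen-inducible Aldh1l1-cre/ERT2 line) for the cortical astrocytes, and the inducible Tmem119-cre knock-in for the cortical microglia. Per the methods, animals of inducible lines received tamoxifen by oral gavage beginning at 3 weeks of age. Of the drivers named there for these cell types, only those of the glia were inducible. Tamoxifen treatment therefore cannot be told apart from the difference between glia and neurons. Tagged ribosomes were pulled down from whole tissue, so that each library holds the mRNA of the cells in which the driver was active and whatever RNA came along with the beads. Per the methods each cell type had 3 biological replicates, and each interneuron library pooled the hippocampi of 2 mice. Of 22 libraries, 18 are used, 1 per replicate, and the 4 others are repeat libraries of the same replicates in a later batch. Levels are TPM, a measure of transcript abundance that takes account of transcript length and of the size of the library, summed over the transcripts of a gene and given as mean ± SD (n = 3).

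The 18 libraries held between 38270477 and 71440915 estimated counts, and the lowest estimated count of any of the 5 genes in any library was 121. Across genes on the log scale, libraries of a cell type correlated at 0.988 to 0.994 and libraries of different cell types at 0.743 to 0.951. Markers of each labelled type were highest in its own libraries, with 1 exception: of 3 layer V markers, Fezf2 was highest there (mean of 85.5 TPM), while Bcl11b was higher in dentate gyrus granule cells (159 TPM against 34.4) and Etv1 in cerebellar granule cells (728 TPM against 82.5). Markers of other cells were also present. The sum of 9 oligodendrocyte markers ran from 3066 to 3293 TPM in the interneuron libraries, from 1037 to 1267 in astrocytes, from 575 to 670 in microglia and from 124 to 424 in the other neurons, and none of the 9 was at 0 in any library. The sum of 6 endothelial markers was highest in microglia (313 to 467 TPM, against 71.5 or less elsewhere). Astrocyte replicate 1 stood apart with 3676 TPM of choroid plexus and ependymal markers, against 19.9 and 26.5 TPM in the other astrocyte libraries. Among the 18 libraries, interneurons and microglia came from batch 2 and the other cell types from batch 1, so that batch and cell type cannot be told apart within them. The 4 repeat libraries, 1 each for the other cell types, allow batches to be compared within a replicate, and their values are given below. In 1 repeat library, batch 2 of layer V replicate 1, labelled male, the sex-linked genes went against the labelled sex. The batch 1 library of the same replicate is labelled female. Its Xist (2.45 TPM) and summed Y-linked genes (0.385 TPM) were near those of the repeat (2.125 and 0.485 TPM). The repeat is used only where repeat libraries are named.

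The gene of the first step, Gatm (ENSMUSG00000027199.14; GRCm38, chr2:122594467-122611303, minus strand), was highest in glia and had the widest range of the 5. In microglia the 3 libraries held 108, 111 and 108 TPM (109 ± 1.65), and in astrocytes 73.1, 72.7 and 62.9 TPM (69.5 ± 5.78). The interneuron libraries followed with 38.2, 42.3 and 40.9 TPM (40.4 ± 2.10). These 3 groups did not overlap with each other or with any other cell type. Dentate gyrus granule cells held 9.90, 7.15 and 11.1 TPM (9.39 ± 2.04), layer V neurons 7.75, 8.15 and 8.57 TPM (8.16 ± 0.412), and cerebellar granule cells 3.58, 3.29 and 4.19 TPM (3.69 ± 0.46). The ranges of dentate gyrus and layer V cells overlapped, and the cerebellar granule cells lay below both. The mean in microglia was 29.6 times that in cerebellar granule cells. Of 12838 protein-coding genes with a mean of at least 5 TPM in some cell type, 86.6% had a smaller span between their highest and lowest cell type, taken after adding 1 TPM to both.

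Gamt, the gene of the second step (ENSMUSG00000020150.13; chr10:80258151-80261012, minus strand), was highest in astrocytes, with 47.9, 47.8 and 46.2 TPM (47.3 ± 0.942). Microglia held 22.3, 23.8 and 22.4 TPM (22.8 ± 0.812) and interneurons 21.1, 22.04 and 19.4 TPM (20.9 ± 1.31). The microglial libraries lay just above the interneuron libraries, and both lay below all astrocyte libraries. Cerebellar granule cells (12.9, 13.0 and 10.8 TPM; 12.2 ± 1.25) and layer V neurons (11.2, 10.7 and 12.4 TPM; 11.4 ± 0.870) overlapped. Dentate gyrus granule cells had the lowest level, 7.68, 7.35 and 6.99 TPM (7.34 ± 0.347). The span of Gamt, 6.44 times from dentate gyrus to astrocytes, was larger than that of 58.7% of genes.

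**Figure D1:**
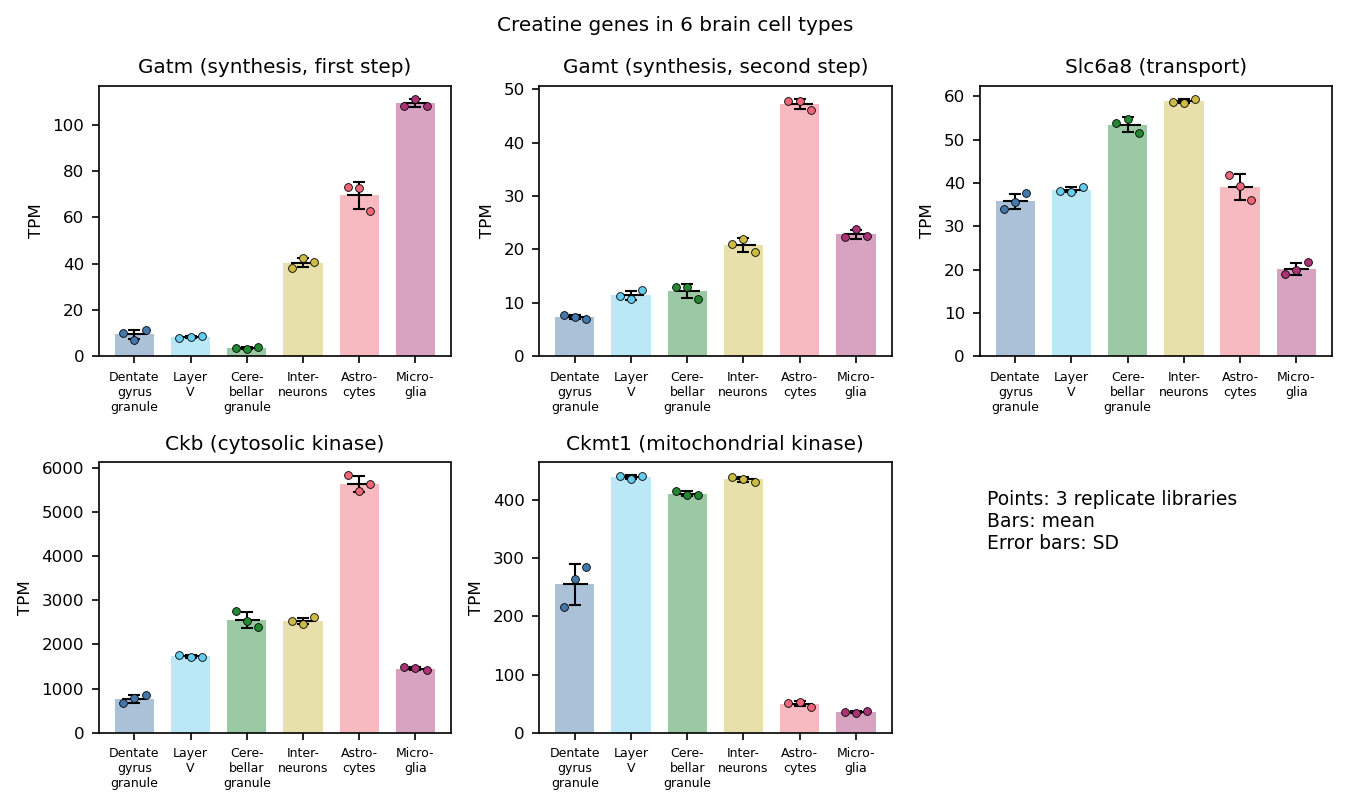
TPM of the 5 creatine genes in 6 cell types; points are the 3 replicate libraries, bars their mean and error bars the SD, with a scale of its own in each panel that starts at 0. Gatm and Gamt are highest in glia (109 TPM in microglia and 47.3 TPM in astrocytes), Ckb in astrocytes (5641 TPM) and Ckmt1 in neurons (255 to 439 TPM), while Slc6a8 varies least.

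The synthesis enzymes were thus highest in different glia, and the balance of their mRNA differed by cell type. The ratio of Gatm to Gamt TPM, taken within each library, was 4.79 ± 0.0972 in microglia, 1.94 ± 0.148 in interneurons and 1.47 ± 0.0940 in astrocytes. It was 1.29 ± 0.310 in dentate gyrus granule cells, 0.715 ± 0.0421 in layer V neurons and 0.307 ± 0.0724 in cerebellar granule cells. Gatm therefore exceeded Gamt in every microglial library, by 4.68 to 4.86 times, and Gamt exceeded Gatm in every layer V and cerebellar library. In the dentate gyrus the libraries fell on both sides of 1 (0.972 to 1.59).

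Oligodendrocytes are known to express Gamt, and their markers were set beside both synthesis genes. Among the 4 neuron types, the order of Gatm (interneurons, dentate gyrus, layer V, cerebellum) was the order of the oligodendrocyte marker sum. Gamt did not follow it: interneurons were highest for both, but in the other neurons Gamt ran from cerebellum to layer V to dentate gyrus, opposite to the marker sum. Mbp, a myelin protein gene, had a mean of 1184 TPM in interneurons, 179 in dentate gyrus granule cells, 134 in layer V neurons and 65.2 in cerebellar granule cells. The part of this RNA in the levels of Gatm and Gamt was not tested. Over all 6 cell types the orders differed: microglia, with the highest Gatm, had a marker sum below that of the interneurons, whose Gatm was lower in every library. The microglial libraries also held the highest sums of endothelial markers (313 to 467 TPM) and of pericyte and smooth muscle markers (89.5 to 105 TPM). The part of vascular RNA in the microglial Gatm level was not tested. A lower level in these tissue pulldowns cannot be told apart from a smaller share of the cells that express the gene.

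**Figure D2:**
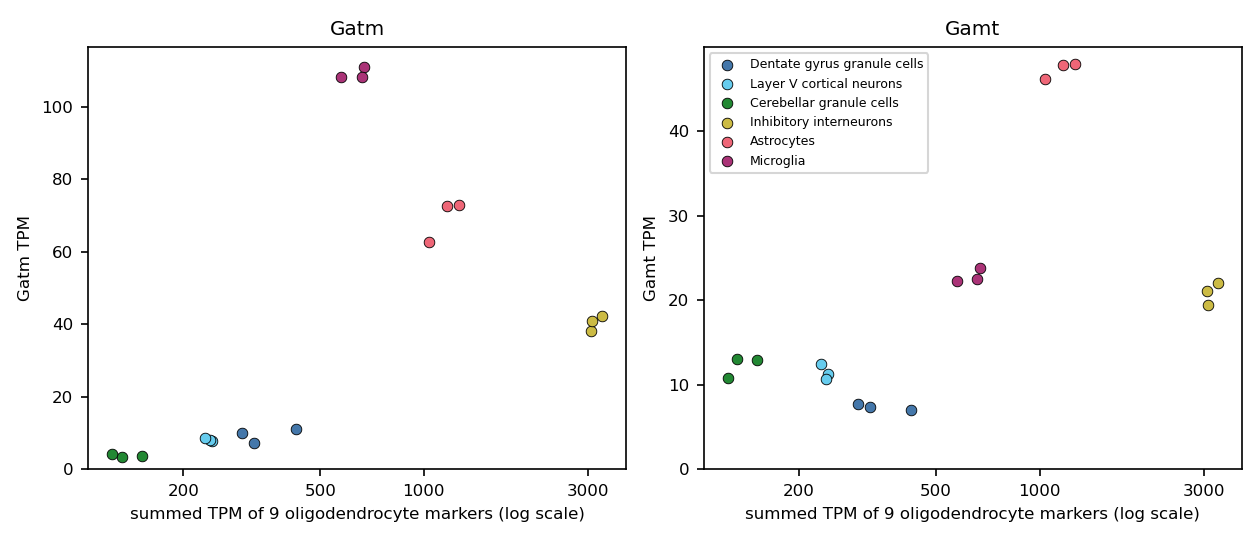
TPM of Gatm (left) and Gamt (right) against the summed TPM of 9 oligodendrocyte markers (log axis) in the 18 libraries, coloured by cell type. The 3 interneuron libraries hold the highest marker sums (3066 to 3293 TPM), while the highest Gatm lies in microglia and the highest Gamt in astrocytes, both at lower marker sums.

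With equal weight for each neuron type, the mean Gatm level was 15.4 TPM in neurons, and the log2 ratio was 2.83 ± 0.0423 (SE) for microglia and 2.17 ± 0.0801 for astrocytes. For Gamt, with 13.0 TPM in neurons, it was 1.87 ± 0.0367 for astrocytes and 0.82 ± 0.0442 for microglia. The SE of these ratios, and of those of the other members below, holds only the spread between replicates within cell types. The spread between neuron types, whose means ran from 3.69 to 40.4 TPM for Gatm, does not enter it. Without the interneurons, a view added after the marker levels were seen, the log2 ratios rose to 3.95 and 3.30 for Gatm and to 1.14 and 2.20 for Gamt, in microglia and astrocytes respectively. The single astrocyte library rich in choroid plexus markers held 73.1 TPM of Gatm and 47.9 TPM of Gamt, against 67.8 and 47.0 TPM in the mean of the other astrocyte libraries.

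Slc6a8, the transporter gene (ENSMUSG00000019558.14; chrX:73673150-73682502, plus strand), was the most even of the 5 genes, with its highest level in interneurons and its lowest in microglia. Interneurons held 58.7, 58.5 and 59.4 TPM (58.9 ± 0.470) and cerebellar granule cells 53.9, 54.8 and 51.6 TPM (53.5 ± 1.66). The interneuron libraries also held the most oligodendrocyte markers (3066 to 3293 TPM), and the part of that RNA in their Slc6a8 level was not tested. Astrocytes held 41.9, 39.4 and 36.0 TPM (39.1 ± 2.97), layer V neurons 38.2, 38.0 and 39.1 TPM (38.4 ± 0.582), and dentate gyrus granule cells 34.0, 35.6 and 37.6 TPM (35.8 ± 1.79). The astrocyte range took in all layer V libraries and overlapped with the dentate gyrus, whereas the lowest layer V library (38.0 TPM) lay just above the highest of the dentate gyrus (37.6 TPM). Microglia stood below all other cell types, with 18.9, 19.9 and 21.7 TPM (20.2 ± 1.42). The span was 2.91 times, and only 30.9% of genes had a smaller one.

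Neurons as a whole held 46.6 TPM of Slc6a8. The log2 ratio to that mean was -1.21 ± 0.0597 for microglia and -0.25 ± 0.0642 for astrocytes. The astrocyte value depended on the scale: on CPM, library-scaled counts without length, with trimmed-mean (TMM) factors it was -0.04. Slc6a8 lies on the X chromosome, so its levels were also set against the labelled sex. Libraries labelled female were lower than those labelled male in the dentate gyrus, in layer V and in microglia (18.9 TPM against 19.9 and 21.7), higher in astrocytes (41.9 against 39.4 and 36.0), and between them in cerebellar granule cells, so no single direction held over the cell types.

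Ckb, the cytosolic kinase (ENSMUSG00000001270.9; chr12:111669361-111672338, minus strand), was the most abundant of the 5 genes in every cell type. The astrocyte libraries held 5827, 5462 and 5635 TPM (5641 ± 183), which was 0.564% of all TPM and placed Ckb at rank 10 among the 12838 genes. Cerebellar granule cells held 2748, 2526 and 2388 TPM (2554 ± 182) and interneurons 2524, 2472 and 2612 TPM (2536 ± 70.6). These neurons overlapped with each other and lay below all astrocyte libraries, with ranks of 16 and 13. The part of oligodendrocyte RNA in the interneuron level of Ckb was not tested. Layer V neurons held 1760, 1708 and 1713 TPM (1727 ± 28.8), microglia 1477, 1461 and 1417 TPM (1452 ± 30.6), and dentate gyrus granule cells 669, 796 and 848 TPM (771 ± 92.1). Each of these 3 lay apart from the others, and the dentate gyrus, at rank 120, was the lowest. The log2 ratio to the neuron mean of 1897 TPM was 1.57 ± 0.0360 for astrocytes and -0.39 ± 0.0296 for microglia. Both processed copies of Ckb in the index, Ckb-ps1 and Ckb-ps2, stayed at or below 0.0873 TPM.

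Ckmt1, the mitochondrial kinase (ENSMUSG00000000308.14; chr2:121357714-121363737, plus strand), showed another order, with high levels in neurons and low levels in glia. Layer V neurons held 440, 436 and 441 TPM (439 ± 2.99), interneurons 439, 436 and 430 TPM (435 ± 4.51), and cerebellar granule cells 415, 408 and 409 TPM (411 ± 4.07). The first 2 overlapped, and the cerebellar granule cells lay just below. Dentate gyrus granule cells held 216, 264 and 285 TPM (255 ± 35.5) and were again the lowest of the neurons, with the same replicate lowest for both kinases. Astrocytes held 50.9, 52.8 and 44.7 TPM (49.4 ± 4.25) and microglia 35.7, 34.6 and 36.7 TPM (35.7 ± 1.00). The lowest neuronal library, at 216 TPM, lay far above the highest glial library, at 52.8 TPM. Neuronal markers were also present in the glial libraries: the sum of 4 such markers was 814 to 1052 TPM in astrocytes and 342 to 385 TPM in microglia, against 3373 to 12740 TPM in neurons, and none of the 4 was at 0. Astrocytes lay above microglia in this sum, as they did in Ckmt1, and the part of neuronal RNA in the glial Ckmt1 levels, and so in the ratios of Ckb to Ckmt1 there, was not tested. The log2 ratio to the neuron mean of 385 TPM was -2.96 ± 0.0742 for astrocytes and -3.43 ± 0.0305 for microglia, which is 7.79-fold and 10.8-fold lower.

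The kinases together held 5691 ± 182 TPM in astrocytes, against 2971 ± 67.3 in interneurons and 2965 ± 185 in cerebellar granule cells. Layer V neurons held 2166 ± 30.2 TPM, microglia 1487 ± 29.9 TPM and dentate gyrus granule cells 1026 ± 128 TPM. Ckmt1 made up 24.8% ± 0.388 of that sum in the dentate gyrus and 20.3% ± 0.240 in layer V, but 0.870% ± 0.0855 in astrocytes. The ratio of Ckb to Ckmt1, in each library, was 3.03 ± 0.0633 in dentate gyrus, 3.93 ± 0.0586 in layer V, 5.83 ± 0.213 in interneurons and 6.22 ± 0.387 in cerebellar granule cells. It was 40.8 ± 1.84 in microglia and 115 ± 11.4 in astrocytes. The ratio in the dentate gyrus libraries stayed between 2.97 and 3.10, although the coefficient of variation there was 11.9% for Ckb and 13.9% for Ckmt1. No neuronal library had a ratio above 6.62, and no glial library one below 38.7.

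**Figure D3:**
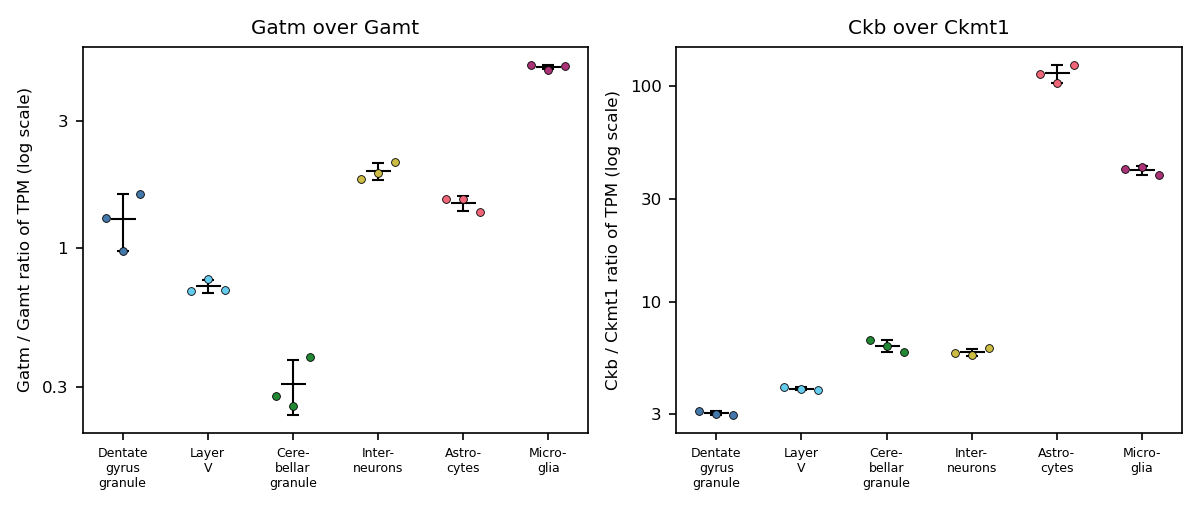
Ratio of Gatm to Gamt TPM (left) and of Ckb to Ckmt1 TPM (right) within each library, on log axes; points are the 3 replicate libraries, the horizontal mark is the mean and error bars are the SD. Gatm over Gamt is 4.79 in microglia and 0.307 in cerebellar granule cells; Ckb over Ckmt1 is 3.03 to 6.22 in neurons, 40.8 in microglia and 115 in astrocytes.

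When each gene's cell types were ordered by their means, 20 of 25 neighbouring pairs (80.0%) had replicates that did not overlap. Among all 12838 genes the same held for 65.4% of 64190 pairs, so separate neighbours were common in these data. The 5 overlapping pairs were the dentate gyrus and layer V for Gatm, cerebellum and layer V for Gamt, astrocytes and layer V for Slc6a8, cerebellum and interneurons for Ckb, and layer V and interneurons for Ckmt1. The coefficient of variation between replicates had a median of 4.86% over the 30 values, and the highest, 21.7%, was that of Gatm in the dentate gyrus. In the 4 replicates with a batch 2 library, the repeat differed from batch 1 by a median of 0.0155 on the log2 scale over 20 values. The largest difference was Gamt in dentate gyrus replicate 3, 6.99 TPM in batch 1 and 8.07 TPM in batch 2.

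The mRNA of Ckmt1 came mainly from 2 of its 10 annotated transcripts, which start at different sites. Ckmt1-201 starts at chr2:121358610 and Ckmt1-202 at chr2:121357776, 834 bases upstream, with a first exon of 84 bases. Both have the same start codon, at chr2:121358850, and the last 1436 bases in common, so that they differ only before the coding sequence. Estimated shares of Ckmt1-202 set layer V neurons apart from all cell types except cerebellar granule cells, and overlapped between the other cell types. Use of the starts was not measured directly. The 250 bases before each start are shown because of that estimated difference and because Ckb, the other kinase, differs from both. They are RefSeq promoter sequences of GRCm38.p6, 5′ to 3′ on the strand of the gene, at chr2:121358360-121358609 (plus) for Ckmt1-201, chr2:121357526-121357775 (plus) for Ckmt1-202 and chr12:111672339-111672588 (minus) for Ckb. Capitals mark TATAAA and CCAAT, on either strand, so that TTTATA and ATTGG are the same motifs on the other strand; GGGCGG was also searched and was not in these 3 windows.
Ckmt1-201: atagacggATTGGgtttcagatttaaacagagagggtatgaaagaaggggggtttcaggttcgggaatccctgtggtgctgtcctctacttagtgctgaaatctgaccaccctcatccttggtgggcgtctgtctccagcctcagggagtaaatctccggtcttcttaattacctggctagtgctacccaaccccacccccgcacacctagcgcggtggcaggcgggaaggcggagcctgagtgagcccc
Ckmt1-202: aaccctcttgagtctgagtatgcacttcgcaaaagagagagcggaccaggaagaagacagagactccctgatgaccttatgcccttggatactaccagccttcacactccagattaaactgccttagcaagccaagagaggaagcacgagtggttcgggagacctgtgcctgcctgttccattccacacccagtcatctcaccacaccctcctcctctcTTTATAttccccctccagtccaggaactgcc
Ckb: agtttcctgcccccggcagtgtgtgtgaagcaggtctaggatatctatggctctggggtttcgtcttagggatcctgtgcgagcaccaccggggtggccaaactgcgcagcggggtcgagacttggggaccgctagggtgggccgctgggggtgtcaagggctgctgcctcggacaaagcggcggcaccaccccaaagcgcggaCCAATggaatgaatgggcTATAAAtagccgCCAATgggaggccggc

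The window of Ckb held TATAAA 28 to 23 bases before the start, in the forward direction, with CCAAT on either side of it, 46 to 42 and 16 to 12 bases before the start. The window of Ckmt1-202 held the same hexamer on the reverse strand, 31 to 26 bases before the start, whereas that of Ckmt1-201 held none and had 1 CCAAT, reversed, 242 to 238 bases before the start. Over all 32851 promoter windows of this length, 12.4% held TATAAA, 33.8% CCAAT and 32.7% GGGCGG on either strand, and a match of letters is no evidence of binding. The windows of the synthesis genes differed from these: that of Gamt (chr10:80261013-80261262, minus) held GGGCGG, reversed, 3 times and neither other motif, and that of Gatm (chr2:122611278-122611527, minus) held CCAAT in both directions. The Gatm window lies before the RefSeq start, at chr2:122611277, and the GENCODE start of Gatm-201, at chr2:122611303, falls inside it. The bases G and C made up 66.8% of the window of Gamt, 62.8% of Ckb, 59.2% of Gatm, 56.0% of Ckmt1-201 and 52.8% of Ckmt1-202, beside a median of 52.4%.

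The share of Ckmt1 TPM held by the upstream form, Ckmt1-202, was highest and steadiest in layer V neurons, where it was 25.7%, 25.5% and 23.5% (24.9% ± 1.17). Cerebellar granule cells gave 10.1%, 14.1% and 27.6% (17.2% ± 9.16) and interneurons 9.66%, 18.8% and 14.8% (14.4% ± 4.57). Dentate gyrus granule cells gave 4.37%, 2.10% and 12.5% (6.34% ± 5.49). The layer V libraries thus lay above all dentate gyrus and interneuron libraries, and only cerebellar replicate 3 lay above them. In glia the shares were 6.05%, 11.4% and 0.0% in astrocytes and 2.37%, 10.7% and 2.00% in microglia, at levels of 6.02 TPM or less. Repeat libraries gave 27.2% in layer V replicate 1, 24.1% in cerebellar replicate 3, 10.3% in astrocyte replicate 2 and 4.07% in dentate gyrus replicate 3, where batch 1 had given 12.5%. Single libraries moved several means: the mean was 3.24% in the dentate gyrus without replicate 3, 3.03% in astrocytes and 2.18% in microglia without replicate 2, and 12.1% in cerebellar granule cells without replicate 3. In interneurons it stayed between 12.2% and 16.8% with each library left out. The split rests on little sequence, since only 46 of the 1590 k-mers (31 bases each) of Ckmt1-201 and 28 of the 1488 of Ckmt1-202 occur in no other transcript of the gene.

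**Figure D4:**
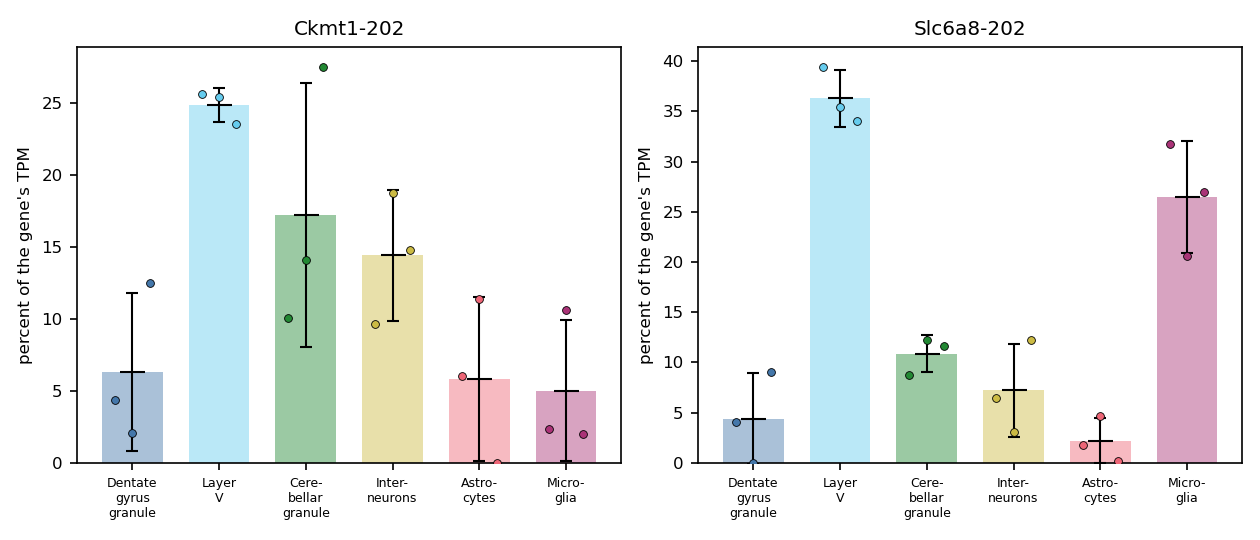
Share of the gene's TPM held by Ckmt1-202, the form that starts upstream (left), and by Slc6a8-202, annotated as a target of nonsense-mediated decay (right), in 6 cell types; points are the 3 replicate libraries, bars their mean and error bars the SD. Both shares are highest in layer V neurons (24.9% and 36.3%), and Slc6a8-202 is next highest in microglia (26.4%).

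Slc6a8 also differed in its transcripts. Of its 13 annotated transcripts, Slc6a8-201 and Slc6a8-203 share start and stop codons and were the most abundant forms in 4 cell types. Their shares were lower in layer V, at 29.9% and 32.6%, and in microglia, at 23.9% and 21.03% in microglia. Slc6a8-202, annotated as subject to nonsense-mediated decay, held 39.4%, 35.4% and 34.0% in layer V (36.3% ± 2.81) and 31.8%, 20.6% and 27.0% in microglia (26.4% ± 5.60). It held 8.77%, 12.2% and 11.6% in cerebellar granule cells, and 12.2% or less in every library of the other 3 cell types. The repeat of layer V replicate 1 gave 37.3%. As a share of estimated counts, which are not scaled by length, the layer V value was 29.3%. Slc6a8-202 starts downstream of the coding forms and shares the last 2666 of its 2729 bases with Slc6a8-203. Only 38 of its k-mers are absent from both coding forms, so that little sequence tells it apart. Slc6a8-203 has 0 of 3284 k-mers that occur in no other transcript of the gene. Its share, and the coding levels of Slc6a8 given below, therefore rest on how reads were divided between transcripts by estimation.

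Protein-coding transcripts made up 45.9% ± 4.24 of Slc6a8 in microglia and 62.6% ± 3.22 in layer V, against 87.5% to 91.9% in the other 4 cell types. For Ckmt1 the share was 75.1% ± 6.00 in microglia, where the retained-intron transcript Ckmt1-210 held 15.5% ± 4.61, 92.3% ± 2.27 in astrocytes and 99.1% or more in neurons. These are shares of TPM, which is scaled by length. As mean shares of estimated counts in microglia, Ckmt1-201 held 86.2% and Ckmt1-210, of 422 bases, 3.38%. Slc6a8-201 and Slc6a8-203 held 36.7% and 25.5% of the gene's counts in microglia, and 37.7% and 32.5% in layer V. Retained-intron transcripts were also more abundant in microglia in general, with 4.47% to 4.95% of all TPM against 2.42% to 3.04% in the other cell types, and over 6551 genes with both kinds of transcript the median coding share was 89.1% in microglia and 93.3% to 96.3% elsewhere. Counting coding transcripts alone, Slc6a8 fell to 9.28 ± 0.945 TPM in microglia and to 24.1 ± 1.51 TPM in layer V, which then lay below astrocytes (35.9 ± 1.43) and dentate gyrus (32.0 ± 2.64). Ckb, Gamt and Gatm were little touched: the coding share of Ckb was 98.3% to 99.9%, that of Gamt 94.9% to 99.6%, and that of Gatm 93.9% or more outside the dentate gyrus (85.5% ± 10.6).

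The members moved in different combinations. Across the 18 libraries, which fall into 6 groups, log2(TPM + 1) of Gamt went with Ckb (r = 0.81) and with Gatm (r = 0.79), and that of Slc6a8 with Ckmt1 (r = 0.75), whereas Gatm and Ckmt1 ran in opposite directions (r = -0.80). The points share cell type and batch, and these values are descriptive. Of protein-coding genes with a mean of at least 5 TPM in some cell type, those most like Gatm were Tmem176b (r = 0.986), Fuca2 (0.985) and Vwa5a (0.985), all highest in microglia; Fuca2 encodes a fucosidase. Those most like Gamt were Nqo2, a quinone reductase, Mid1ip1 and Golga7 (r = 0.977 to 0.985), all highest in astrocytes. Slc6a8 was closest to Msantd4, Itfg1 and Cyc1 (r = 0.987 to 0.988), the last of which encodes cytochrome c1 of the respiratory chain. Ckb was closest to Bcl2, the apoptosis regulator (0.975), Oxnad1 (0.971) and Hbegf, an EGF receptor ligand (0.948). Ckmt1 was closest to Usp5, a deubiquitinase, Nudcd3 and Atp6v1b2, a subunit of the vacuolar proton pump (r = 0.995 for each). No member was among the closest 3 of another.

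The question of how the reactions around creatine vary was addressed with 47 genes in 4 lists that hold no member: other creatine genes, the methyl donor cycle, arginine and ornithine metabolism, and other phosphotransfer systems. Of the 47, 44 had enough counts to be tested (Ckmt2, Mat1a and Slc25a31 had not). Differences were tested with edgeR's quasi-likelihood test across 20524 genes, and a gene was called where the adjusted p did not exceed 0.05 and the levels differed by 2-fold or more. Neuron types were averaged with equal weight on the log scale. The comparisons share libraries: both glial comparisons use the same neurons.

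These lists were drawn up with earlier results of these data known. In astrocytes, 15 list genes were higher than the mean of the 4 neuron types and 5 were lower. Of all genes tested, 28.3% were called higher and 13.7% lower, and the list genes are read against these shares. Of 14 arginine and ornithine genes, 6 were higher and 3 lower. Slc7a2, a cationic amino acid transporter that carries arginine, had 49.0 to 51.9 TPM in the astrocyte libraries and at most 1.08 TPM in any neuronal library (log2 fold change 6.91 ± 0.124 (SE), edgeR adjusted p = 7.99e-19). Oat, ornithine aminotransferase, whose substrate is the other product of the Gatm reaction, had 309 to 328 TPM against 119 or less in neurons (2.38 ± 0.0410, edgeR adjusted p = 4.27e-19). Ass1, which makes argininosuccinate on the way to arginine, was also called higher (3.95 ± 0.144, edgeR adjusted p = 1.92e-14), although interneurons (92.6 to 97.4 TPM) overlapped with astrocytes (91.5 to 99.5 TPM). Without the interneurons, 17 list genes were called higher and 4 lower, with Ass1 still called and Ak4 (1.34 in the fit with all neurons) and Slc7a1 no longer called.

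In the methyl donor cycle, 2 of 10 tested genes were higher in astrocytes and 2 lower. Adk, adenosine kinase, which removes the adenosine left by methylation, had 290 to 311 TPM in astrocytes and 46.4 to 65.7 TPM in neurons (log2 fold change 2.64 ± 0.0392, edgeR adjusted p = 5.09e-20). Ahcyl1, a relative of the adenosylhomocysteinase gene, had 696 to 781 TPM against 129 to 213 TPM (2.49 ± 0.0284, edgeR adjusted p = 1.67e-21). Ahcy, the adenosylhomocysteinase gene itself, is named here beside its relative, outside the naming rule. It was not called, with 22.4 to 24.4 TPM in astrocytes and 23.65 to 37.4 TPM in neurons. Mat2b, the regulatory subunit of the enzyme that makes S-adenosylmethionine, and Gnmt, a glycine methyltransferase, were called lower. For Gnmt the astrocyte mean of 0.333 TPM was near those of the dentate gyrus (0.341), layer V (0.232) and interneurons (0.462), and only cerebellar granule cells, at 17.3 TPM, were far higher. Of 18 other phosphotransfer genes, 6 were higher and the other 12 were not called. The largest was Ak3, a mitochondrial adenylate kinase that uses GTP, with 185 to 207 TPM against 23.2 to 39.6 TPM (3.00 ± 0.0417, edgeR adjusted p = 2.22e-20).

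In microglia, 12 list genes were higher than the mean of the 4 neuron types and 13 lower, beside 31.7% and 21.4% of all genes. The phosphotransfer genes made up 8 of the 13 lower genes, and 4 of that list were higher. Slc25a4, an adenine nucleotide carrier of the inner mitochondrial membrane, had 139 to 141 TPM in microglia and 540 to 902 TPM in neurons (log2 fold change -2.16 ± 0.0389, edgeR adjusted p = 4.83e-19). Ak4, a mitochondrial adenylate kinase, and Nme1, a nucleoside diphosphate kinase, were lower as well, at -2.87 ± 0.103 and -1.81 ± 0.0481. For Ak4 the microglial libraries (3.30 to 5.08 TPM) overlapped with interneurons (4.22 to 7.56 TPM). The other neurons held 29.4 to 198 TPM of Ak4. Ak8, another adenylate kinase, was called lower at low levels (-1.76 ± 0.389, edgeR adjusted p = 0.000456), with 0.190 to 0.252 TPM in microglia. Cerebellar granule cells held less of it, at most 0.185 TPM, and the other neurons 1.08 to 4.19 TPM.

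In the methyl donor cycle, Mtr, methionine synthase, was the gene called higher in microglia, with 24.3 to 27.5 TPM against 2.38 to 8.36 TPM (log2 fold change 2.64 ± 0.0549, edgeR adjusted p = 3.49e-18). Adk (-1.65 ± 0.0527), Ahcyl2 (-1.39 ± 0.0517) and Mat2b (-1.03 ± 0.0435) were called lower. Ahcyl2 had 23.6 to 25.1 TPM in microglia, just below layer V neurons (26.5 to 27.7 TPM). It reached 297 to 358 TPM in the dentate gyrus, the highest of the neurons. Of the arginine genes, 5 were higher and 2 lower. Nos3, the endothelial nitric oxide synthase, had 8.46 to 13.99 TPM in microglia (4.35 ± 0.164, edgeR adjusted p = 2.21e-14), in the libraries that also held the highest endothelial markers; the part of endothelial RNA in it was not tested. Nos2 and Arg1 were called higher at levels of 0.436 to 1.20 TPM, and Nos1, the neuronal synthase, was lower (-4.39 ± 0.126, edgeR adjusted p = 3.70e-16).

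Set against each other, astrocytes exceeded microglia in 15 list genes and fell below them in 6, beside 23.1% and 21.1% of all genes. Adk (log2 fold change 4.29 ± 0.0655, edgeR adjusted p = 3.84e-19), Ak4 (4.21 ± 0.118), Slc7a2 (4.21 ± 0.183), Ass1 (4.19 ± 0.217) and Ahcyl1 (3.37 ± 0.0448) were higher in astrocytes. Mtr (-3.35 ± 0.0867, edgeR adjusted p = 2.71e-16), Arg1, Nos3, Nos2, Gnmt and Ckm were lower. Of these, Arg1, Nos2, Gnmt and Ckm were called at low levels, 1.20 TPM or less in every library of both glia. The part of endothelial RNA in the difference of Nos3 was not tested. In the phosphotransfer list, 6 genes were higher in astrocytes and 12 were not called.

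Cerebellar granule cells, which held the least Gatm, were also set against the other 3 neuron types, and 3 list genes were higher and 14 lower, beside 14.5% and 29.1% of all genes. Gnmt was the highest of its list, with 15.3 to 19.6 TPM in cerebellar granule cells and 0.668 TPM or less in the other neurons (log2 fold change 5.76 ± 0.226, edgeR adjusted p = 8.69e-14). Ak4 was higher too, at 173 to 198 TPM against 4.22 to 44.3 TPM (3.36 ± 0.0751, edgeR adjusted p = 3.19e-17), and so was Slc25a2, an ornithine carrier, at 1.01 to 1.67 TPM. Ak5, a neuronal adenylate kinase, was nearly absent, with 0.314 to 0.527 TPM in cerebellar granule cells, against 384 to 458 TPM in the dentate gyrus, 138 to 149 TPM in layer V and 40.5 to 42.9 TPM in interneurons (-9.04 ± 0.123, edgeR adjusted p = 7.74e-20). Of the arginine genes, 5 were lower, among them Ass1 (0.390 to 0.784 TPM; -5.60 ± 0.293, edgeR adjusted p = 5.07e-12) and Slc7a3, a cationic amino acid transporter (0.0878 to 0.118 TPM; -5.36 ± 0.218, edgeR adjusted p = 1.43e-13). Mtr (0.97 ± 0.0637) and Nos1 (0.97 ± 0.0881) passed the adjusted p but lay just under 2-fold, and 12 of the 18 fits without 1 library gave 5 higher genes in place of 3. Mtr was among the added genes in each of the 12, and Nos1 in all except the fit without cerebellar granule cell replicate 2, where Arg2 was added. The count also came to 5 without the interneurons, with Nos1 and Slc25a5 added. Mtr, Nos1, Arg2 and Slc25a5 are named in this comparison because they changed the count, and were chosen after their values were seen.

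**Figure D5:**
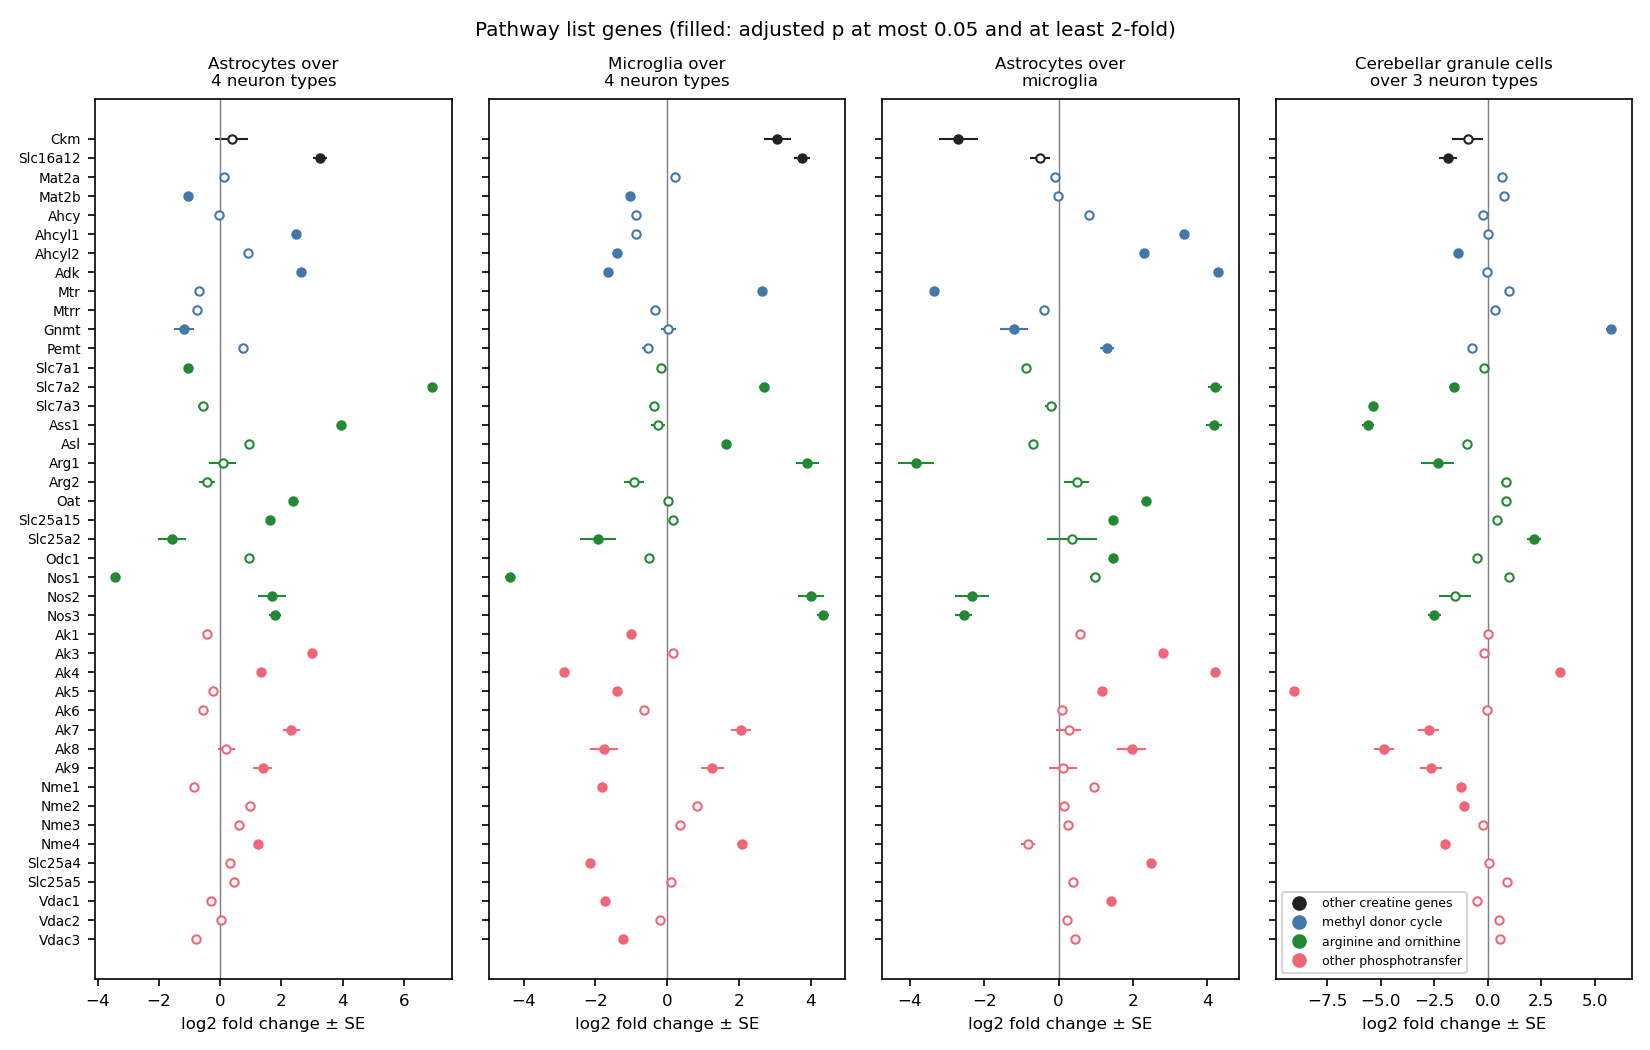
Log2 fold change from the edgeR fit, with an SE derived from its F statistic, for the tested genes of the 4 pathway lists in the 4 comparisons. Of these genes, 1 is not drawn. Each panel has its own scale, colours mark the lists, and filled points mark called genes. Slc7a2 (6.91) lies farthest to the right for astrocytes, and Ak5 (-9.04) farthest to the left for cerebellar granule cells.

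The 3 other creatine genes were rare in all cell types. Slc16a12, a monocarboxylate carrier family member that transports creatine, had 0.776 to 1.12 TPM in astrocytes, 1.24 to 1.74 TPM in microglia and at most 0.257 TPM in neurons, and was called higher in both glia (log2 fold change 3.27 ± 0.225, edgeR adjusted p = 2.23e-10, and 3.76 ± 0.218, edgeR adjusted p = 1.36e-11). Ckm, the muscle-type cytosolic kinase, had 0.287 to 0.464 TPM in microglia, on 16 to 28 estimated counts, and at most 0.128 TPM elsewhere. Ckmt2, the mitochondrial kinase of striated muscle, had at most 4 estimated counts in any library. Ckb and Ckmt1 were thus far more abundant than the muscle-type kinases in every cell type.

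The median log2 fold change of the 44 list genes was 0.42 for astrocytes, -0.22 for microglia, 0.37 for astrocytes against microglia and -0.19 for cerebellar granule cells. Over all 20524 genes it was 0.14, 0.15, 0.04 and -0.21. The members, which chose the subject, are left out of all these counts.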

How the data were processed

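Before deposit, the authors removed adapters (cutadapt 3.5) and ran kallisto 0.46.2 against mouse GENCODE transcripts (versions from the submitters' processing notes), and the deposited tables give, for 142552 transcripts, an estimated count and a TPM value per library. Both were summed per gene here. The members and the pathway lists were chosen with earlier results of these data known. Estimated counts were rounded and tested in edgeR 4.0.16 (R 4.3.3; quasi-likelihood, TMM, filterByExpr, cell type as the only term over 18 libraries, Benjamini-Hochberg over 20524 genes). Named genes are the members, the other creatine genes, up to 4 called list genes with the largest change per list, comparison and direction, and the 3 genes most correlated with each member; not all are described, and genes named outside this rule are stated. The SE beside an edgeR log2 fold change is its absolute value divided by the square root of the F statistic of the test. It was derived in this way and not estimated by the fit itself. In data simulated for astrocytes against neurons over 19293 genes, genes were called on the adjusted p alone, without the 2-fold threshold. In this way 99 of 100 genes changed 2-fold and 100 of 100 changed 4-fold were recovered, and 6 unchanged genes were called. The genes changed 2-fold had a median absolute log2 estimate of 1.012, at the edge of that threshold. Recovery under the full calling rule was therefore not measured. Transcript structures came from an older GENCODE release, in which all 35 member transcripts had the same length, and promoters from RefSeq. The authors' sleuth analysis was not repeated. Tables without resampled estimates leave the error of assigning reads to transcripts unknown. Alternatives used DESeq2 1.42.0, other normalizations, filters, batches, units and left-out libraries. Values of 1 list gene are not reported here, although it stays in the fits and counts.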

Additional observations from a re-analysis of the deposited data

How the results depend on the processing

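Of 508 values recomputed for 36 results, 461 kept their size, 47 moved and none reversed, and no list gene was called in the other direction under any alternative. Ratios and shares kept their size if they shifted by less than the SD between replicates, and counts if they stayed within a fixed factor. Leaving out 1 of 3 replicates shifts a mean by less than that SD, so those ratios and shares could only be labelled as kept. Only ratios could be labelled as reversed. With no fold threshold, the list counts were 24 higher and 14 lower for astrocytes, 22 lower for microglia, 23 higher and 11 lower for astrocytes against microglia, and 14 higher for cerebellar granule cells. The last count, 3 in the report, was 5 with all 22 libraries and batch as a term, 7 in batch 2 alone (where cerebellar granule cells, and each other cell type except interneurons and microglia, had 1 library, assumed to vary like the replicates of those 2), 5 without the interneurons, and 3 to 5 with each library left out in turn. Replicate numbers did not pair the samples (correlations of same-numbered deviations from -0.1 to 0.109, median 0.039), and with replicate as a block the counts were 15 and 5, 12 and 13, 15 and 6, and 3 and 14, as without it. On CPM with TMM factors, the log2 ratios to neurons in astrocytes were 2.46 for Gatm, 2.08 for Gamt, -0.044 for Slc6a8 and 1.75 for Ckb, and in microglia 3.06 for Gatm, 0.98 for Gamt, -1.39 for Slc6a8, -0.20 for Ckb and -3.52 for Ckmt1. Without the interneurons, an alternative chosen after seeing the data, they were 3.30, 2.20, -0.12 and 1.74 in astrocytes, and 3.95, 1.14, -1.07, -0.21 and -3.37 in microglia. With protein-coding transcripts alone, Slc6a8 was at -0.12 in astrocytes and -2.07 in microglia, and Ckmt1 at -3.84 in microglia. As shares of estimated counts, Ckmt1-201 was 76.8% in layer V and 86.2% in microglia, Ckmt1-202 23.1% in layer V, and Slc6a8-202 29.3% in layer V and 8.16% in cerebellar granule cells. The causes of these shifts were not tested.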
